A study of Neurospora crassa OR74A with 2 samples.

Results

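Transcript levels of 6 genes of the STRIPAK complex (striatin-interacting phosphatase and kinase) were compared between a Δpp-1 deletion strain and the wild type of Neurospora crassa, a filamentous ascomycete. The 6 genes were set by a list of identifiers, drawn up with earlier results of these data known. They were ham-2 (NCU03727), ham-3 (NCU08741), ham-4 (NCU00528), mob-3 (NCU07674), ppg-1 (NCU06563) and pp2A-A (NCU00488). All 6 were measured, of 8564 genes in all. There was 1 library of Δpp-1, which lacks the Ste12-type transcription factor PP-1, and 1 library of the wild type, strain FGSC 2489. The inoculum of each was conidia (asexual spores), which grew for 5 h at 30 °C, an age at which wild-type germlings fuse with one another. The labels do not say from how many transformants or cultures each library came, and fusion was not measured in these files.

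STRIPAK is built around a protein phosphatase 2A core. The scaffold subunit PP2A-A holds the catalytic subunit PPG-1, and the striatin HAM-3 serves as the regulatory subunit that brings in HAM-2, a STRIP-type protein, HAM-4, a forkhead-associated domain protein with a membrane anchor, and MOB-3, a phocein. In N. crassa the complex assembles at the nuclear envelope, acts in germling fusion and fruiting body development, and is needed for the MAP kinase MAK-1 to accumulate in nuclei, while MOB-3 is a target of the MAP kinase MAK-2. PP-1 acts downstream of MAK-2.

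Values were RPKM, that is, reads divided by gene length in kilobases and by the library total in units of 1000000 reads, so levels of different genes can be set side by side. From the spacing of low values, the totals behind this scaling came to about 9360000 reads for Δpp-1 and 7870000 reads for the wild type. Since each strain had a single library, nothing below could be checked against replicates or tested, and the values describe these libraries only. The deleted gene was compared first: pp-1 (NCU00340) stood at 1.69 RPKM in Δpp-1 and 83.8 RPKM in the wild type, the side its label calls for. As these are bulk cultures, fewer cells of a type and less RNA per cell cannot be told apart.

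None of the 6 STRIPAK genes was at least 2-fold lower or higher in Δpp-1. Log2 folds, computed on RPKM + 1, ran from -0.56 for ppg-1 to -0.05 for ham-2, with a median of -0.21. Of the 4831 genes that reached 10 RPKM in at least 1 library, which include all 6, 6.98% were at least 2-fold lower and 2.73% at least 2-fold higher. Read against these shares, 0 of 6 is close to the background and does not set the STRIPAK genes apart. All 6 had a lower RPKM in Δpp-1, but so did 73.8% of the 4831 genes, whose median log2 fold was -0.28. Set against this median gene, the median of the 6 was 0.06 higher. Relative to it, 4 of the 6 (ham-2, ham-3, ham-4 and pp2A-A) were higher and 2 (mob-3 and ppg-1) were lower.

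The phosphatase core held both the highest and, in Δpp-1, the lowest level of the complex. The scaffold gene pp2A-A stood at 81.5 RPKM in Δpp-1 and 92.9 RPKM in the wild type, a log2 fold of -0.19. More than 90% of all genes were lower than pp2A-A in each library, at percentile 90.6 in Δpp-1, against 90.2 in the wild type. The catalytic subunit gene ppg-1, which the gene table used here calls pp2A, stood at 13.2 RPKM in Δpp-1 and 19.9 RPKM in the wild type, a log2 fold of -0.56. Its level in Δpp-1 was 66.2% of that in the wild type, the lowest share of the 6 genes. Among all genes, ppg-1 was at percentile 57.4 in Δpp-1, against 63.4 in the wild type, and this rank does not depend on how the libraries are scaled. Per unit of scaffold transcript, ppg-1 was at 0.162 in Δpp-1, against 0.214 in the wild type.

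The striatin gene ham-3, for the regulatory subunit, had the second highest level in both libraries, at 31.1 RPKM in Δpp-1 and 36.8 RPKM in the wild type. Its log2 fold was -0.24, close to that of the median gene, and its rank among all genes was percentile 77.8 in both libraries. Its ratio to the scaffold gene was 0.382 in Δpp-1, against 0.396 in the wild type.

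Of the genes for proteins that join the core through striatin, ham-2 and ham-4 differed little between the strains and mob-3 differed more. The STRIP-type gene ham-2 stood at 18.5 RPKM in Δpp-1 and 19.1 RPKM in the wild type, the closest pair of values among the 6, with a log2 fold of -0.05. The gene of the membrane-anchored protein, ham-4, stood at 22.7 RPKM in Δpp-1 and 25.8 RPKM in the wild type, with a log2 fold of -0.18. The ratio of ham-4 to pp2A-A was 0.279 in Δpp-1, against 0.278 in the wild type, the most constant of the 15 ratios among the genes. The phocein gene mob-3, called mob1-2 in the gene table, stood at 19.1 RPKM in Δpp-1 and 28.3 RPKM in the wild type, with a log2 fold of -0.54. Its level in Δpp-1 was 67.7% of that in the wild type, and its rank among all genes was percentile 67.0 in Δpp-1, against 72.2 in the wild type.

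**Figure D1:**
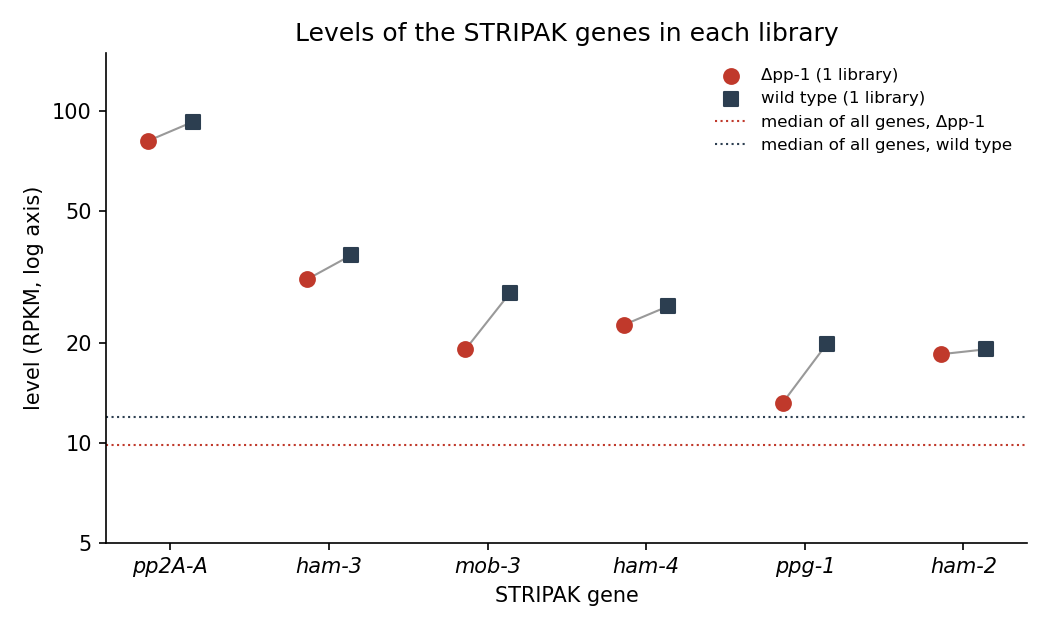
Level of each STRIPAK gene in RPKM, on a log axis, in the Δpp-1 library (circles) and the wild-type library (squares), joined by a line for each gene; dotted lines mark the median of all genes in each library. All 6 genes lie above both medians, and the lines of mob-3 and ppg-1 are steeper than the others.

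The order of the levels differed in 2 places. In Δpp-1 it was pp2A-A, ham-3, ham-4, mob-3, ham-2 and ppg-1, and in the wild type it was pp2A-A, ham-3, mob-3, ham-4, ppg-1 and ham-2. Of the 15 pairs of genes, 13 kept their order, and the pairs ham-4 with mob-3 and ham-2 with ppg-1 did not. The ratio of ham-2 to ppg-1 was 1.40 in Δpp-1, against 0.96 in the wild type, the largest shift of any pair at 0.55 on the log2 scale. The ratio of mob-3 to ppg-1, the pair lower than the median gene, was 1.45 in Δpp-1, against 1.42 in the wild type. These ratios are taken within a library, so the scaling between libraries does not enter them. The highest and lowest of the 6 levels were 6.18-fold apart in Δpp-1 and 4.85-fold apart in the wild type. Together the 6 genes summed to 186 RPKM in Δpp-1 and 223 RPKM in the wild type.

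Counting error was set beside each ratio as an exact 95% interval of the log2 ratio of RPKM, without a pseudocount, from 50% of the reads computed from RPKM and gene span, since spans hold introns. The interval covers counting error only. On this scale the median gene was at -0.29. The interval of mob-3 ran from -0.79 to -0.33 and lay below the median gene, and that of ham-2 ran from -0.27 to 0.17 and lay just above it. For ppg-1 it ran from -0.93 to -0.25, which holds the median gene, as did the intervals of ham-3 (-0.41 to -0.07), ham-4 (-0.38 to 0.00) and pp2A-A (-0.30 to -0.08). The intervals of ham-2 and mob-3 do not overlap, whereas that of ppg-1 overlaps those of the other 5 genes, if only narrowly for ham-2. With 100% of those reads, the interval of ppg-1 was -0.84 to -0.36, below the median gene, and that of pp2A-A was -0.27 to -0.11, above it, as was that of ham-2 at -0.20 to 0.11.

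For 5 of the 6 genes the values could also be turned back into whole reads, since only certain whole numbers of reads and gene lengths in bases give both deposited values. The reads of mob-3 came to 322 in Δpp-1, against 400 in the wild type, and those of ham-2 to 574 in Δpp-1, against 499 in the wild type. For ppg-1 they were 119 in Δpp-1, against 151 in the wild type, or 238 in Δpp-1, against 302 in the wild type. For ham-4 they were a multiple of 162 in Δpp-1, against 155 in the wild type, and for pp2A-A a multiple of 477 in Δpp-1, against 457 in the wild type, so that these genes, like ham-2, had more reads in Δpp-1, the larger library, and a lower RPKM. For ham-3 no whole numbers were found. From the smallest of these numbers the interval was -0.78 to -0.35 for mob-3, -0.22 to 0.13 for ham-2 and -0.95 to -0.24 for ppg-1. That of ppg-1 holds the median gene, but it rests on the smaller pair of reads, at a length of 963 bases. The larger pair, at 1926 bases, would give a narrower interval, so the place of ppg-1 against the median gene depends on this choice. For ham-4 and pp2A-A, where several multiples are possible, the smallest numbers gave intervals over 1.5 times as wide as those above. They were -0.51 to 0.14 for ham-4 and from -0.38 to just below 0 for pp2A-A, and both hold the median gene. These smallest numbers belong to short gene lengths, 762 bases for ham-4 and 625 bases for pp2A-A. The largest possible numbers belong to 3810 and 3125 bases and would give narrower intervals, so the wide ones are an outer limit at the library totals given above.

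**Figure D2:**
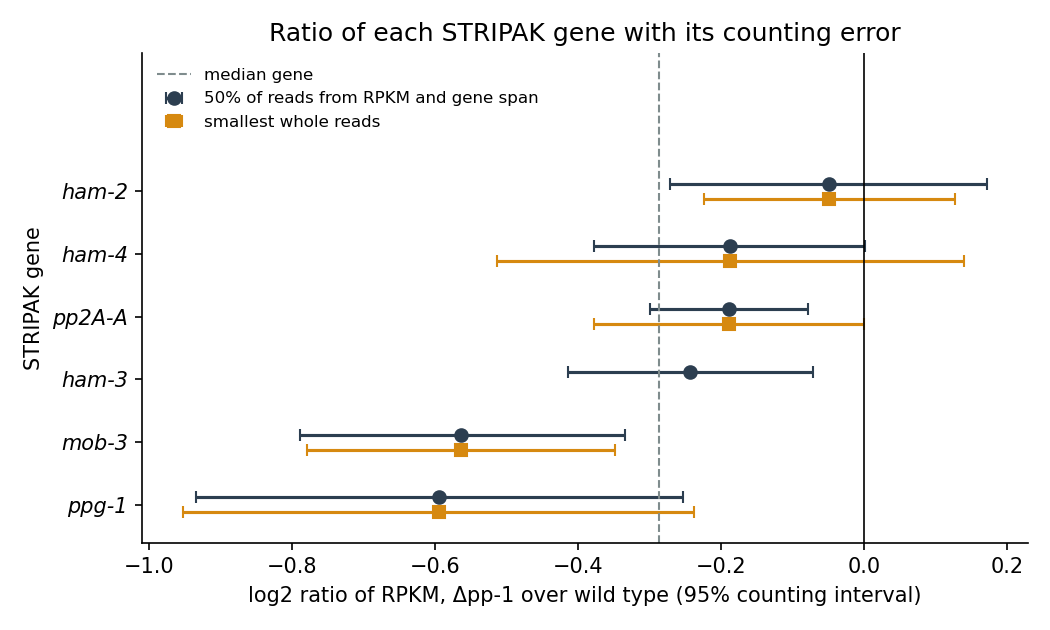
Log2 ratio of RPKM, Δpp-1 over wild type, for each STRIPAK gene with exact 95% counting intervals from 50% of the reads computed from RPKM and span (circles) or from the smallest whole reads (squares, 5 genes); the solid line marks equal levels and the dashed line the median gene at -0.29. The intervals of mob-3 lie left of the dashed line and those of ham-2 right of it.

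Among all genes the STRIPAK genes lay in the body of the distribution. The middle 50% of the 4831 log2 folds ran from -0.56 to 0.02, and 45.4% of the genes fell between ppg-1 and ham-2. By the share of genes with a smaller log2 fold, ppg-1 was at percentile 24.9 and mob-3 at 26.2, and ham-3, pp2A-A, ham-4 and ham-2 were at 53.7, 57.8, 58.7 and 70.3. At a lower limit of 1.5-fold, 0 of 6 were lower, against 23.3% of the 4831 genes, and 0 were higher, against 6.11%. As a ratio of RPKM without the pseudocount, the wild type was 1.51-fold above Δpp-1 for ppg-1 and 1.48-fold above it for mob-3, so ppg-1 is past this lower limit on that scale, as it is with a pseudocount of 0.1 RPKM, where its log2 fold was -0.59.

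**Figure D3:**
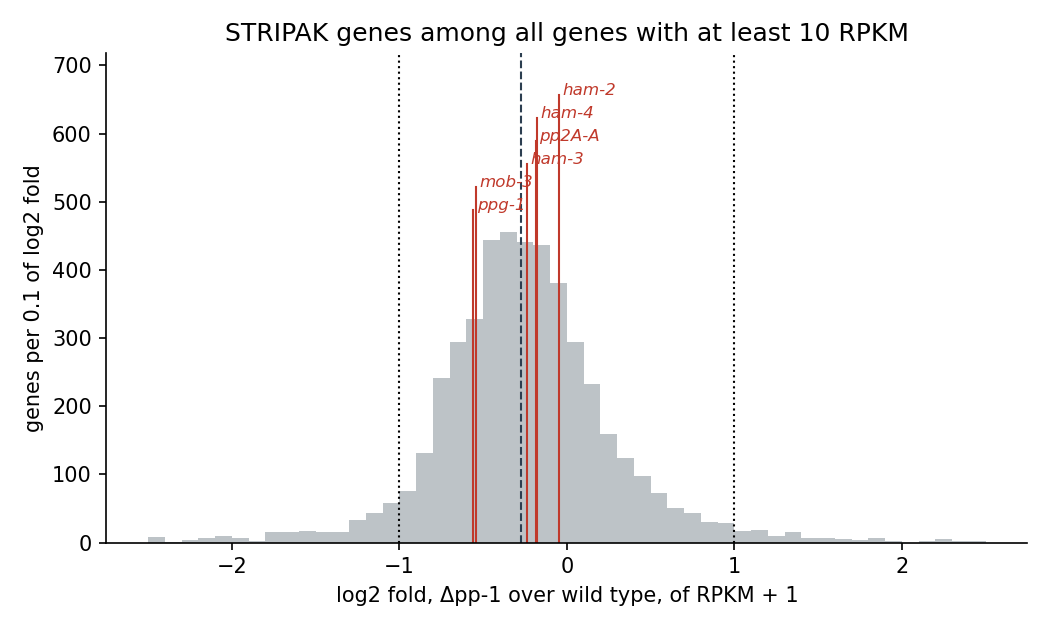
Number of genes per 0.1 of log2 fold (Δpp-1 over wild type, RPKM + 1) among the 4831 genes that reached 10 RPKM, with 110 genes beyond the axis; red lines mark the 6 STRIPAK genes, the dashed line the median gene and the dotted lines 2-fold. The red lines stand between -0.56 and -0.05, within the central hump.

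Rescaling the libraries moved the folds of 4 genes across 0 and hardly altered the order of the 6. After each library was divided by its median, the median gene was at -0.03, and ham-2, ham-4, pp2A-A and ham-3 were at 0.20, 0.07, 0.07 and 0.01, with mob-3 at -0.29 and ppg-1 at -0.32. With both libraries rescaled to the same sum, the log2 folds were 0.34 for ham-2, 0.21 for ham-4 and pp2A-A and 0.15 for ham-3, and -0.16 for mob-3 and -0.19 for ppg-1. Each rescaling adds nearly the same amount to the log2 fold of every gene, so which genes cross 0 follows from their folds as deposited and says nothing more about them. None of the 6 reached 2-fold under any of them. The background moved too: as deposited, 337 of the 4831 genes were at least 2-fold lower and 132 higher, and after median scaling 219 were lower and 210 higher.

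**Figure D4:**
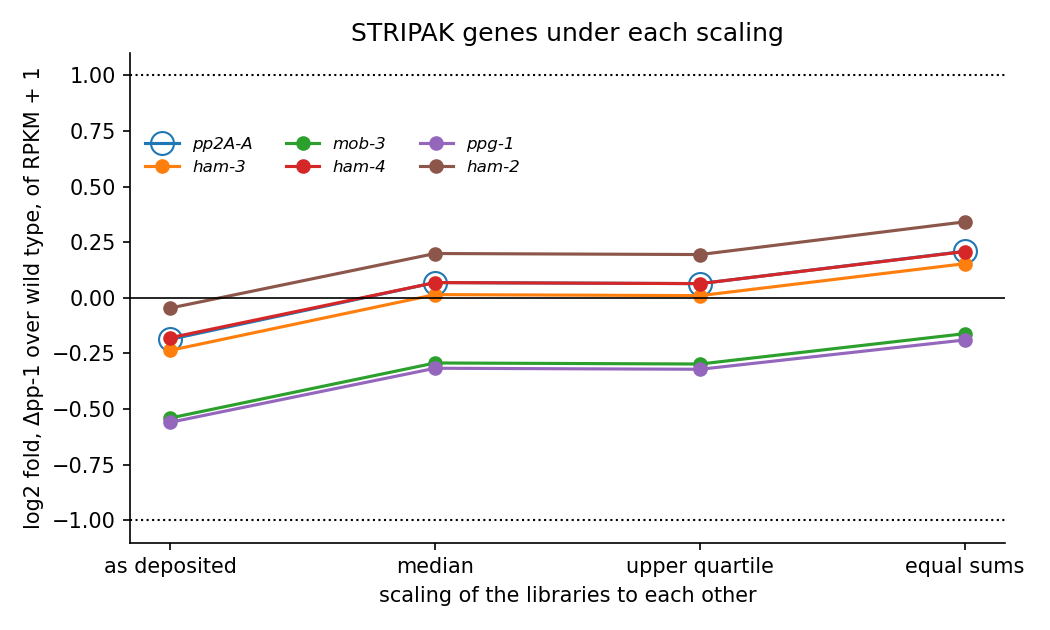
Log2 fold of each STRIPAK gene (Δpp-1 over wild type, RPKM + 1) in the values as deposited and under 3 other scalings of the libraries; dotted lines mark 2-fold, and pp2A-A (open circles) nearly coincides with ham-4. The lines run in parallel, with mob-3 and ppg-1 below 0 throughout and the other 4 above 0 in the 3 scalings.

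Reads of overlapping genes cannot be told apart without strand, and the library steps in the labels do not mark it. In the gene table, ppg-1 overlaps rdi-1 (NCU06561) at one end. This neighbour was far higher than ppg-1, at 230 RPKM in Δpp-1 and 256 RPKM in the wild type, or 17.5 times and 12.9 times the level of ppg-1, and its log2 fold was -0.15. The part of the ppg-1 reads that may come from rdi-1 was not tested. The end of ham-2 overlaps NCU03728, at 20.6 RPKM in Δpp-1 and 15.3 RPKM in the wild type. The other members overlap neither neighbour. Of the 12 genes next to the 6 members, 10 were measured and none was 2-fold higher or lower, here with no minimum level. This is near the shares of the 4831 genes that reached 10 RPKM, 6.98% lower and 2.73% higher. The log2 folds of the neighbours ran from -0.75 for NCU00487, beside pp2A-A, to 0.71 for NCU07675, beside mob-3. NCU07675 stood at 49.9 RPKM in Δpp-1 and 30.1 RPKM in the wild type, the opposite direction to mob-3.

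Other phosphatase genes, from a list written by hand with earlier results of these data known, were likewise within 2-fold. Of 7 genes 0 were 2-fold lower and 0 higher, which is near the 6.98% and 2.73% of all genes, and the median log2 fold was -0.11, which is 0.16 above the median gene. The gene pph-1 (NCU06630), for another catalytic subunit of protein phosphatase 2A, stood at 78.7 RPKM in Δpp-1 and 85.2 RPKM in the wild type, well above ppg-1 in both. The regulatory subunit gene rgb-1 (NCU09377), of the phosphatase 2A form without striatin, stood at 75.5 RPKM in Δpp-1 and 79.4 RPKM in the wild type. Both levels were close to that of the scaffold gene pp2A-A, which serves both forms. The lowest log2 fold of the list was that of ppt-1 (NCU01433) at -0.57, near that of ppg-1, and the highest was 0.07 for the calcineurin regulatory subunit gene cnb-1 (NCU03833). For ppp-1, a type 1 phosphatase gene, it was -0.41, for the calcineurin catalytic gene cna-1 -0.11 and for pzl-1 -0.04.

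Relatives of mob-3 were listed with the kinases that bind MOB proteins and with a germinal centre kinase, the kinase class found in STRIPAK of other species. The genes sid-1 and cdc-7, listed as well and measured, were left out because the gene table gave another symbol for their identifiers. Of the 6 genes kept, 1 was at least 2-fold lower and 0 higher, against 6.98% and 2.73% of all genes, with a median log2 fold of 0.04. The one past 2-fold was mob-1 (NCU01605), whose product works with the kinase DBF-2 in septum formation, at 8.25 RPKM in Δpp-1 and 24.1 RPKM in the wild type. Its log2 fold of -1.44 set it below mob-3, and dbf-2 (NCU09071) itself had a log2 fold of 0.11. The genes mob-2a, mob-2b and cot-1, whose products form the complex that controls hyphal tip growth, had log2 folds of 0.07, 0.02 and 0.09. The germinal centre kinase gene mst-1 (NCU00772) stood at 10.6 RPKM in Δpp-1 and 15.8 RPKM in the wild type, a log2 fold of -0.53, which is close to those of mob-3 and ppg-1.

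The MAP kinase genes next to STRIPAK in fusion signalling differed among themselves. Of the MAK-1 cascade, 1 of 3 kinase genes was 2-fold lower and 0 were higher, where the shares of all genes were 6.98% and 2.73%. It was mek-1 (NCU06419), with a log2 fold of -1.97, followed by mak-1 (NCU11376) at -0.68 and mik-1 (NCU02234) at 0.13. Of the MAK-2 cascade, whose end kinase acts on MOB-3, 0 of 3 were 2-fold lower or higher, near those shares, with log2 folds of -0.37 for mek-2, -0.12 for mak-2 and 0.01 for nrc-1, and a median of -0.12. The range of the STRIPAK genes, from -0.56 to -0.05, holds mek-2 and mak-2.

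Other genes needed for germling fusion lay lower than the STRIPAK genes in these libraries. Of 7 such genes 6 were at least 2-fold lower and 0 higher, against 6.98% and 2.73% of all genes, with a median log2 fold of -1.61. The list was drawn up with earlier results of these data known, so its count is not independent evidence. The 6 were Prm1, ham-6, ham-8, so, ham-9 and ham-7, with log2 folds from -4.88 for Prm1 to -1.09 for ham-7. The seventh, ham-10 (NCU02833), had a log2 fold of -0.11 and lay within the range of the STRIPAK genes. The listed genes named ham lay on both sides of the limit, and other ham genes were not listed. Within 2-fold were ham-2, ham-3, ham-4 and ham-10. Past it were ham-6, ham-7, ham-8, ham-9 and so, which is also called ham-1. Whether the lists differ was not tested, since each strain had 1 library.

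**Figure D5:**
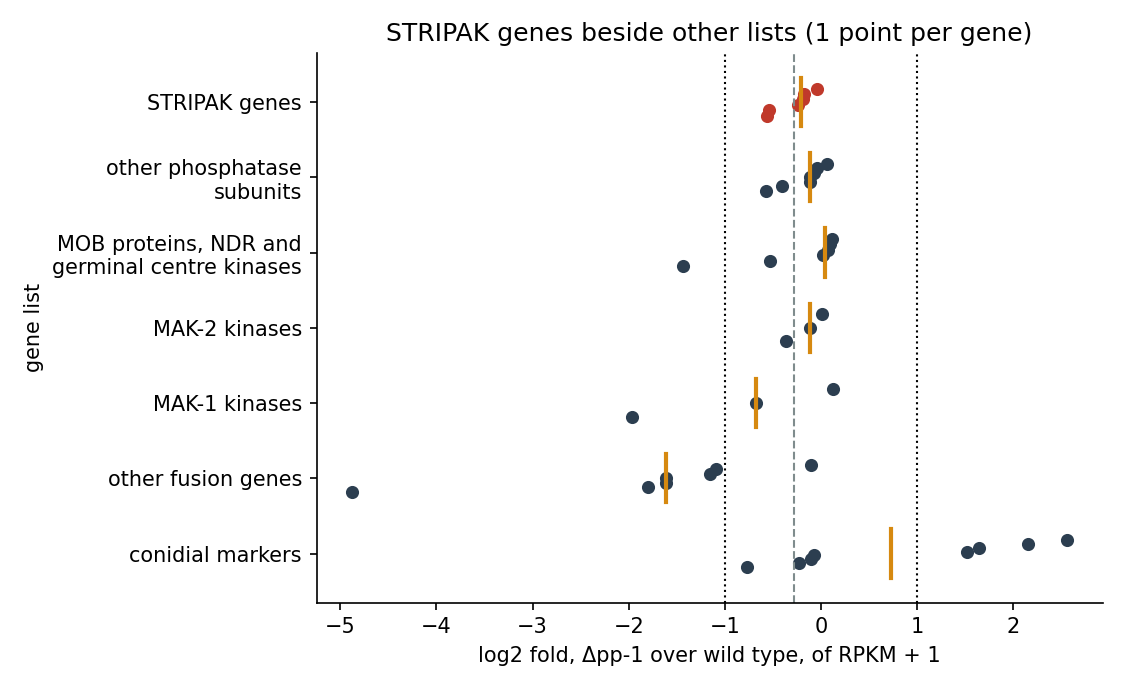
Log2 fold (Δpp-1 over wild type, RPKM + 1) of every gene in 7 lists, 1 point per gene, with an orange bar at each list's median, a dashed line at the median gene and dotted lines at 2-fold. The 6 STRIPAK genes (red) lie between -0.56 and -0.05, and 6 of the 7 other fusion genes lie beyond 2-fold on the lower side.

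Markers of conidia and aerial hyphae differed between the same libraries. Of 8 markers, con-10, al-1, con-6 and eas (4) were past 2-fold on the higher side and 0 were on the lower side, against 2.73% and 6.98% of all genes. The other 4 had log2 folds below 0, at -0.76 for acon-3, -0.23 for con-8, -0.11 for ccg-1 and -0.07 for fl, and all of these but ccg-1 were under the 10 RPKM needed for a call. The summed level of the 8 was 337 RPKM in Δpp-1 and 93.3 RPKM in the wild type, of which al-1 made up 187 RPKM in Δpp-1 and 41.1 RPKM in the wild type, and none of the 8 was listed at 0. The part this has in the levels of the STRIPAK genes was not tested.

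The genes most like the STRIPAK genes in level were found by the smallest distance from the mean of the 6 in log2(RPKM + 1), over the 2 libraries and among 1099 other genes with a symbol. They were crf3-1, pex33, yif1, oxa-2 and os-5, at distances from 0.046 to 0.122, with log2 folds from -0.36 for crf3-1 to -0.17 for oxa-2. These folds follow from the choice, since the levels that set the distance also give the fold. The members themselves were 0.32 to 2.24 away from their own mean.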

How the data were processed

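RNA was extracted with Trizol, purified on oligo(dT) beads, fragmented and made into cDNA with random primers, per the labels' protocols. The submitters' processing notes name TopHat and Cufflinks with no version. Which genome build and annotation they used is not given in the sources used here. The deposited values are RPKM per the file headers, and they were used as deposited. Each library listed 8564 genes once repeated lines (238 of 8802) were merged. No columns of other samples were present.

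Log2 folds compare Δpp-1 + 1 with wild type + 1 (a pseudocount of 1 RPKM), which understates the change of low genes. Genes were called by size, at least 2-fold, where 1 library reached 10 RPKM. No test was possible with 1 library per strain. Members, lists and the rule for named genes (all members, all listed genes, neighbours and the 5 genes most alike) were chosen with earlier results of these data known. Listed genes were left out (3: ppe-1, sid-1 and cdc-7) where NCBI RefSeq's NC12 gene table gave another symbol. The members, set by identifier, were kept whatever their symbol there, as with ppg-1. That table was used for names, spans and neighbours.

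Depth was read from low values. Of 800 genes listed under 1.5 RPKM but not at 0, in each library, 96.0% had a ratio equal to a ratio of whole numbers up to 39, within a relative 6e-06, once a library ratio of 1.19 was taken out. The most common step of RPKM times span among low genes, 0.127 in the wild type, was taken as 1 read, with the matching 0.107 in Δpp-1. Few of the 8294 genes with a span fell on low multiples of it. At 2 reads there were 6 genes in the wild type and 10 in Δpp-1, at 3 reads 10 in each, and at 1 read none. Genes of 10 to 100 RPKM in the wild type, over 10 RPKM in Δpp-1 and with spans within set limits were then tried. With this unit, 95.8% of these 2553 genes had whole reads in both libraries, within the rounding of 6 digits. Any length in bases from 300 up to the span was allowed. The unit had been finely adjusted to solve the most of a subset of these genes, so this share is not an independent check. At 4 shifted units the share was at most 1.72%, but the library ratio was shifted along with the unit, so their parts are not separated. With a unit 2 times as large, as a coarser reading of the spacing would give, 47.2% of the genes had whole reads. Under that unit the library totals and reads given here would be 50% as large and the intervals wider. Reads without molecular identifiers are not independent molecules. Intervals are exact (Clopper-Pearson, 95%). Folds, calls, whole reads and intervals were tested on simulated counts with counting error alone, the intervals from the simulated reads themselves. Intervals from the 50% share or the smallest whole reads were not tested in this way. Python 3.11.15, numpy 2.4.6, pandas 2.3.3 and scipy 1.17.1 were used. Alternatives were other scalings, pseudocounts, level minimums, folds and read numbers.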

Additional observations from a re-analysis of the deposited data

How the results depend on the processing

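No paired analysis was possible because there was a single library of each strain, which also left no replicate to leave out. The intervals from whole reads were added after seeing the data. The median log2 fold of the STRIPAK genes, -0.21 as deposited, was 0.041 with median scaling, 0.037 with upper-quartile scaling and 0.18 with equal sums of 1000000, each of which shifts Δpp-1 upward and moves the median gene by 0.25, 0.24 and 0.39. Under these 3 scalings the list medians were 0.14, 0.14 and 0.28 for other phosphatase subunits, 0.30, 0.29 and 0.44 for MOB proteins and their kinases, -0.42, -0.43 and -0.28 for MAK-1 kinases, 0.14, 0.13 and 0.28 for MAK-2 kinases, and -1.36, -1.36 and -1.23 for other fusion genes, which were at -1.42 with a pseudocount of 5 RPKM. The numbers of all genes 2-fold lower and higher were 219 and 210, 220 and 208, and 197 and 288. They were 521 and 252 with no filter on low values, 179 and 67 with at least 30 RPKM, and 1125 and 295 at 1.5-fold. These limits admit more or fewer genes by construction. Using pseudocounts of 0.1 and 5 RPKM, all 6 STRIPAK genes stayed within their counting error, and 0 of 6 were past 2-fold under every setting tried, nor past 1.5-fold with the pseudocount of 1 RPKM. Counting error limits what can be said of ppg-1, the member with the fewest reads.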

Other observations

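Close to ham-3 in the gene table, beyond a tRNA gene, lies NCU08739, a gene without a symbol that was singled out after its values were seen. It stood at 0.566 RPKM in Δpp-1 and 13.6 RPKM in the wild type, a log2 fold of -3.22, while ham-3 had a log2 fold of -0.24.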
